A study of Mus musculus with 6 samples.

Results

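The genes described here encode the proteins that bring long-chain fatty acids into liver cells and carry them through the cytosol, together with PPARG, a nuclear receptor that regulates several of them. They were taken by name from a table of 13273 rows, and all 9 (Pparg, Cd36, Slc27a1, Slc27a2, Slc27a4, Fabp1, Fabp2, Fabp4 and Fabp5) had a row. All 9 were also among the 11346 rows tested, whose values averaged 0.5 FPKM or more (FPKM are fragments scaled by transcript length and by the size of the library). The livers came from C57Bl/6 wild type (WT) female mice that were 2 months old when the Lieber–DeCarli liquid diet was begun. Both groups first had the control liquid diet for 3 days. The ETOH-WT group (3 mice) was then given ethanol in steps from 1% to 6.4% v/v. The PF-WT group (3 mice) was pair-fed the isocaloric diet without ethanol. The liquid diet lasted 3 weeks in all, with the first 3 days included. Livers were taken on day 21, the mice had been kept 2 to a cage, and each library came from 1 mouse. No allele was altered in either group, and all livers of a diet have a code in common in the labels, which cannot be told apart from the diet. FPKM summed to 567808 to 625003 per library and 86 to 163 genes were listed at 0 in 5 of the livers. In ETOH-WT mouse 1 no gene was listed at 0 and the lowest value was 0.0867 FPKM, so its low values differ in kind from those of the others. The read depth could not be recovered from the values, so counting error is unknown.

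Long-chain fatty acids circulate bound to albumin or as triglyceride in lipoproteins. At the cell surface CD36, a scavenger receptor, binds fatty acids and assists their entry, while the fatty acid transport proteins of the SLC27 family (FATPs) couple entry to the formation of acyl-CoA, which traps the fatty acid in the cell. In the cytosol the small fatty acid binding proteins (FABPs) hold fatty acids in a barrel-shaped pocket and deliver them to membranes, enzymes and nuclear receptors. PPARG, which has its main role in fat cells, binds fatty acids as ligands, pairs with a retinoid X receptor (RXR) and activates genes of lipid uptake and storage. It is low in normal liver and rises in many forms of fatty liver.

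With ethanol, Pparg and Slc27a2 rose and Fabp5 fell, while the other 6 genes did not pass the test. Fabp5 fell 24.4-fold, from 188 ± 73.3 to 7.69 ± 4.10 FPKM (mean ± SD, n = 3 here and throughout). Pparg rose 1.86-fold and Slc27a2, the most abundant FATP, 1.55-fold, as ratios of mean FPKM. The values of the surface receptor Cd36 were 46.7 ± 31.0 FPKM in PF-WT and 91.0 ± 29.5 FPKM in ETOH-WT, and the diets overlapped. The test was limma on log2(FPKM + 1), two-sided, with Benjamini-Hochberg adjustment over all 11346 genes and a threshold of 0.05. Log2 fold changes on that scale understate the change of low genes.

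Read against all genes, 2 of 9 members were called higher, where 3.97% of the genes tested were called higher, and 1 of 9 was called lower, where 2.67% were. The ETOH-WT livers were all above the PF-WT livers for 3 members (Pparg, Slc27a2 and Slc27a4), which held for 17.9% of all genes. They were all below for another 3 (Fabp1, Fabp2 and Fabp5), which held for 11.2%. Cd36, Slc27a1 and Fabp4 overlapped between the diets. The median log2 fold change was 0.27 over the 9 members and 0.02 over all genes tested. Of all genes called, 59.8% were higher, a share that was 52.4% after quantile normalization and 50.2% after median-ratio scaling.

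**Figure D1:**
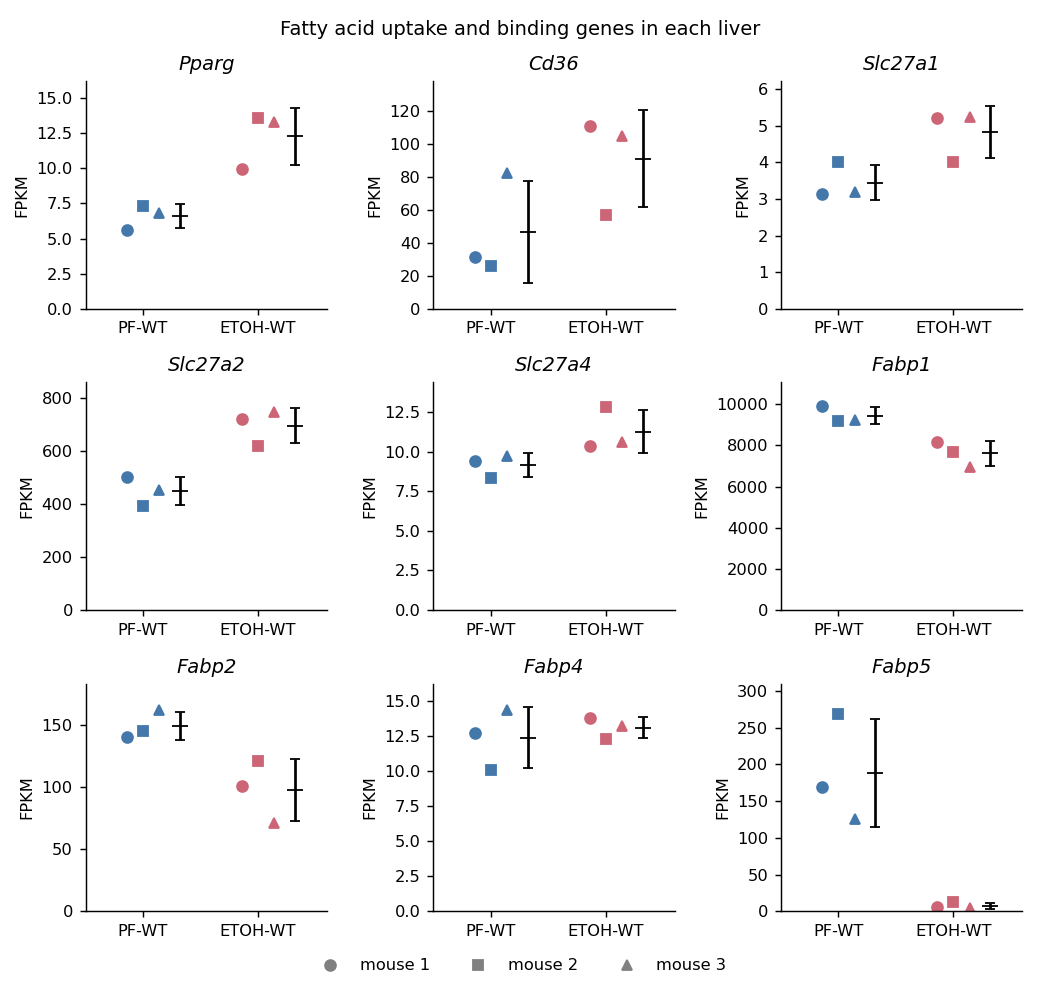
FPKM of each of the 9 genes in every liver, with PF-WT in blue and ETOH-WT in red; the marker shape gives the mouse number, and the black bar is the mean with its SD (n = 3). Each vertical axis starts at 0 and has its own scale. The 3 ETOH-WT livers lie above the 3 PF-WT livers for Pparg, Slc27a2 and Slc27a4 and below them for Fabp1, Fabp2 and Fabp5.

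Pparg, the regulator, was at 5.63, 7.31 and 6.84 FPKM in PF-WT mice 1 to 3 and at 9.92, 13.6 and 13.3 FPKM in ETOH-WT mice 1 to 3. All ETOH-WT livers were above all PF-WT livers, with the lowest ETOH-WT value in mouse 1. The means were 6.59 ± 0.866 and 12.3 ± 2.04 FPKM, a log2 fold change of 0.80 (SE 0.14, 95% interval 0.47 to 1.13, limma adjusted p = 0.0202). The call was lost without PF-WT mouse 2 (limma adjusted p = 0.0587) and without ETOH-WT mouse 3 (limma adjusted p = 0.0810). Pparg (ENSMUSG00000000440) lies on chromosome 6 at 115360951 to 115490399 (GRCm38, plus strand) and has 7 annotated transcripts, which the table joins into 1 value. The antisense gene Gm44079 overlaps it, and since strand-aware counting is not stated, reads from the pair cannot be told apart. In bulk liver, fewer cells of a type and less RNA per cell cannot be told apart either, which holds for each gene below.

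PPARG with RXR binds direct repeats of AGGTCA with 1 base between the repeats, an arrangement called DR1 that other nuclear receptors of liver also use. The windows from 250 bases before to 50 bases after the RefSeq gene starts (GRCm38.p6) were searched on both strands for DR1 with up to 2 mismatches over the 12 letters. There were 11 such windows for 7 of the members; Fabp4 and Fabp5 had none. A DR1 match was found in 2 of the 11 windows, those of Cd36 and Fabp1, against 3.86% of all 32851 windows in the table. The 150 bases just before the start are given 5′ to 3′ on the gene's strand for those 2 genes, with the DR1 match in capitals, and for Slc27a2, which rose and holds no match. In Fabp1 the second stretch of capitals is a TATAAA. The RefSeq starts used are not the gene starts of the deposited table: the Cd36 and Slc27a2 stretches lie inside the gene intervals given for them here, downstream of the first annotated start, and the Fabp1 stretch overlaps the start of its interval.
Fabp1, chr6:71199729-71199878, plus strand: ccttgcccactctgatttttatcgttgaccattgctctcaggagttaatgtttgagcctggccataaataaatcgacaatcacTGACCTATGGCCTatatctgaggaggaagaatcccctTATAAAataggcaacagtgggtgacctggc
Cd36, chr5:17835897-17836046, minus strand: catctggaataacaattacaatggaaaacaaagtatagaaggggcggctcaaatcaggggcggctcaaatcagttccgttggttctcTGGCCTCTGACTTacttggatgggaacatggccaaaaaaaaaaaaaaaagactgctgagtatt
Slc27a2, chr2:126552874-126553023, plus strand: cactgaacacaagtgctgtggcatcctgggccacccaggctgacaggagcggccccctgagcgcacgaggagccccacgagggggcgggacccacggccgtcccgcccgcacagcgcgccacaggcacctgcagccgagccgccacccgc

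Both DR1 matches lie on the strand opposite to the gene, so the capitals show the reverse complement of the repeat. The Fabp1 match holds 1 exact AGGTCA, and in the Cd36 match neither repeat is exact. The Fabp1 match spans positions -67 to -55 from the start and has 1 mismatch, and the Cd36 match spans -63 to -51 and has 2 mismatches. A match of this kind describes the letters only and does not show that a receptor binds there. The same repeats with 4 bases between them, a spacing used by liver X receptors, matched no member window and 3.02% of all windows under the same 2 mismatches. The SREBP-type element TCACNCCAC was in no member window and in 1.24% of all windows. TATAAA was in the windows of Fabp1, at -30 to -25, and of Pparg, at -29 to -24 on the opposite strand, against 13.6% of all windows. The absence of a match says only that these letters are not in this window.

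Cd36 was at 31.5, 26.2 and 82.3 FPKM in PF-WT mice 1 to 3 and at 111, 57.1 and 105 FPKM in ETOH-WT mice 1 to 3. PF-WT mouse 3 stood above ETOH-WT mouse 2, so the diets overlapped, and mouse 2 was the lowest of each diet. The log2 fold change was 1.08 (SE 0.42, 95% interval 0.11 to 2.05, limma adjusted p = 0.171), the highest point value of the 9 members with the widest interval. PF-WT mouse 3 decided the call: without it the log2 fold change was 1.57 (limma adjusted p = 0.0276), and with array weights, which give libraries that stand apart less weight, it was 1.61 (limma adjusted p = 0.0128). Cd36 (ENSMUSG00000002944, chromosome 5, 17781690 to 17888801, minus strand, 6 transcripts) is also expressed by Kupffer cells, the macrophages of liver, and by endothelial cells.

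The summed level of 8 markers of Kupffer cells and macrophages was 306, 291 and 157 FPKM in PF-WT mice 1 to 3 and 245, 170 and 221 FPKM in ETOH-WT mice 1 to 3. None of the 8 passed the test. PF-WT mouse 3, which had the highest Cd36 of its diet, had the lowest of these sums. The 8 sinusoidal endothelial markers summed to 155 to 182 FPKM in PF-WT and 134 to 180 FPKM in ETOH-WT, and none passed. The part of these cells in the Cd36 values was not tested.

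The FATPs split by abundance. Slc27a2 (FATP2), an acyl-CoA synthetase of very long chain fatty acids and the main FATP of liver together with FATP5, was at 501, 394 and 453 FPKM in PF-WT mice 1 to 3 and at 721, 619 and 745 FPKM in ETOH-WT mice 1 to 3. The lowest ETOH-WT liver was above the highest PF-WT liver. The means were 449 ± 54.0 and 695 ± 67.0 FPKM, a log2 fold change of 0.63 (SE 0.12, 95% interval 0.34 to 0.92, limma adjusted p = 0.0265). The direction was kept in every alternative, but the call was lost after quantile normalization (log2 fold change 0.49, limma adjusted p = 0.0719). It was also lost when PF-WT mouse 2 (limma adjusted p = 0.114), PF-WT mouse 3 (0.0555), ETOH-WT mouse 1 (0.0667) or ETOH-WT mouse 3 (0.110) was left out. Slc27a2 (ENSMUSG00000027359) lies on chromosome 2 at 126552407 to 126588243 on the plus strand, with 4 transcripts, and the noncoding gene Gm26697 overlaps it on the other strand, so reads of the pair cannot be told apart.

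Slc27a1 (FATP1), the transporter of muscle and fat that responds to insulin, was the lowest member, at 3.14, 4.01 and 3.18 FPKM in PF-WT mice 1 to 3 and 5.22, 3.99 and 5.23 FPKM in ETOH-WT mice 1 to 3. ETOH-WT mouse 2 was at the level of PF-WT mouse 2, and the other ETOH-WT livers were above all PF-WT livers. The means were 3.44 ± 0.487 and 4.81 ± 0.710 FPKM, with a log2 fold change of 0.39 (SE 0.13, 95% interval 0.08 to 0.69, limma adjusted p = 0.125). Slc27a1 (ENSMUSG00000031808, chromosome 8, 71568882 to 71587302, plus strand, 9 transcripts) shares 205 bases at 90.2% identity with the gene model Gm38374, between which reads could be split.

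Slc27a4 (FATP4), which sits largely in the endoplasmic reticulum and is needed for the skin barrier, was at 9.45, 8.34 and 9.73 FPKM in PF-WT mice 1 to 3 and at 10.4, 12.9 and 10.6 FPKM in ETOH-WT mice 1 to 3. The diets did not overlap, although the highest PF-WT and lowest ETOH-WT livers lay close together. The means were 9.17 ± 0.735 and 11.3 ± 1.37 FPKM, a log2 fold change of 0.27 (SE 0.11, 95% interval 0.01 to 0.53, limma adjusted p = 0.193). Slc27a4 (ENSMUSG00000059316) lies on chromosome 2 at 29802634 to 29817522 on the plus strand, with 2 transcripts.

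The other abundant FATP, Slc27a5 (FATP5), a bile acyl-CoA synthetase of hepatocytes, moved the other way. It was at 392, 385 and 430 FPKM in PF-WT mice 1 to 3 and at 273, 261 and 267 FPKM in ETOH-WT mice 1 to 3, with no overlap. Its log2 fold change was -0.59 (SE 0.09, limma adjusted p = 0.0108), a call that was lost without PF-WT mouse 2 (limma adjusted p = 0.0515) and without ETOH-WT mouse 3 (limma adjusted p = 0.0560). The ratio of Slc27a2 to Slc27a5 within a liver was 1.28, 1.02 and 1.05 in PF-WT mice 1 to 3 and 2.64, 2.37 and 2.79 in ETOH-WT mice 1 to 3. Thus Slc27a2 was above Slc27a5 in every liver of both diets, narrowly in PF-WT mice 2 and 3. The ratio was larger in every ETOH-WT liver than in any PF-WT liver. The mean ratio was 1.12 ± 0.140 in PF-WT and 2.60 ± 0.213 in ETOH-WT (exact permutation test, two-sided, p = 0.1, the smallest that 3 livers against 3 can give). The sum of Slc27a1, Slc27a2, Slc27a4 and Slc27a5 was 864 ± 63.5 and 978 ± 70.8 FPKM (exact permutation test, two-sided, p = 0.2).

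**Figure D2:**
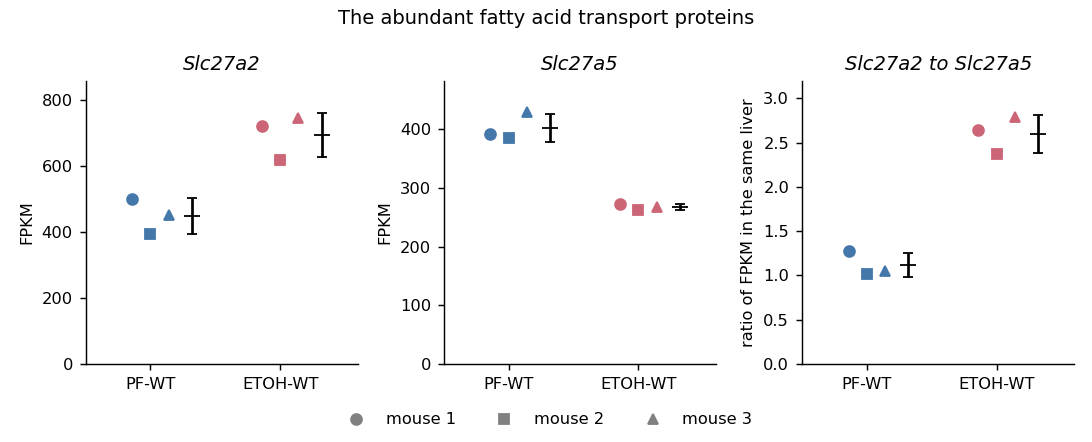
FPKM of Slc27a2 (left) and Slc27a5 (middle) and their ratio within each liver (right), with PF-WT in blue, ETOH-WT in red and the marker shape giving the mouse number; black bars are the mean with its SD (n = 3), and each axis starts at 0. Slc27a2 was higher and Slc27a5 lower in every ETOH-WT liver, and the ratio lay between 1.02 and 1.28 in PF-WT and between 2.37 and 2.79 in ETOH-WT.

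Among the FABPs, Fabp5 (epidermal FABP) carries fatty acids to PPARδ and is a gene of skin, macrophages and fat. It was at 169, 269 and 126 FPKM in PF-WT mice 1 to 3 and at 5.75, 12.4 and 4.92 FPKM in ETOH-WT mice 1 to 3. Every ETOH-WT liver was below every PF-WT liver by a wide margin, and mouse 2 was the highest and mouse 3 the lowest in each diet. The log2 fold change was -4.47 (SE 0.35, 95% interval -5.28 to -3.66, limma adjusted p = 0.00113), and only 1 of the 11346 genes tested had a lower one. The call was kept without any 1 of the livers, with log2 fold changes of -4.83 to -4.18 and limma adjusted p of 0.00198 to 0.00873. By its mean level Fabp5 went from the percentile of 96.1 among tested genes in PF-WT to 51.0 in ETOH-WT.

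Fabp5 (ENSMUSG00000027533) lies on chromosome 3 at 10012548 to 10016607 on the plus strand, with 2 transcripts. Its transcripts share at least 90% identity over at least 200 bases with 5 processed pseudogenes (Fabp5l2, Gm13998, Gm14328, Gm6100 and Gm6166). The closest was Gm6166, at 98.3% over 409 bases, so reads could be split between them and the level of Fabp5 is uncertain to that extent. The pseudogenes were not analysed here. The Kupffer and macrophage markers, a cell type that expresses Fabp5, overlapped between the diets as given above. The 3 of 4 lipid-associated macrophage markers that were tested did not pass. Their list summed to 48.7 to 58.5 FPKM in PF-WT and 45.9 to 58.1 FPKM in ETOH-WT. Nearly all of that sum was Spp1 and Cd9, which moved in opposite directions without overlap between the diets. Their log2 fold changes were -0.49 (limma adjusted p = 0.0668) and 0.59 (limma adjusted p = 0.0597). Spp1 also marks cholangiocytes, and Trem2 and Gpnmb were low (means of 0.549 and 0.0548 FPKM in PF-WT). The flat sum therefore does not give the level of these macrophages, and their part in the Fabp5 values was not tested.

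Fabp4 (adipocyte FABP), of fat cells, macrophages and capillary endothelium, lies 187481 bases from Fabp5 on the same chromosome, with the 3′ ends of the pair facing each other (ENSMUSG00000062515, chromosome 3, 10204088 to 10208576, minus strand, 2 transcripts). It was at 12.7, 10.1 and 14.3 FPKM in PF-WT mice 1 to 3 and at 13.8, 12.3 and 13.2 FPKM in ETOH-WT mice 1 to 3. The ETOH-WT values lay within the range of PF-WT. The log2 fold change was 0.09 (SE 0.13, 95% interval -0.21 to 0.38, limma adjusted p = 0.734), an interval that leaves room for a small change in either direction. The ratio of Fabp5 to Fabp4 within a liver was 13.3, 26.7 and 8.75 in PF-WT mice 1 to 3 and 0.417, 1.01 and 0.372 in ETOH-WT mice 1 to 3 (exact permutation test, two-sided, p = 0.1, the smallest possible).

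Of 7 adipocyte markers, Lipe and Cidec were measured and together summed to 5.30 to 6.03 FPKM in PF-WT and 5.42 to 6.44 FPKM in ETOH-WT. Most of that sum was Lipe, a lipase (5.36 ± 0.458 and 4.56 ± 0.954 FPKM, limma adjusted p = 0.420), while the low Cidec was called higher (limma adjusted p = 0.0367). The fat cell markers Adipoq, Lep, Plin1, Cfd and Retn had no row among the deposited values. The list of 7 capillary and large vessel endothelial markers had 5 tested, of which Emcn fell (limma adjusted p = 0.0491, and 0.0860 to 0.179 with any 1 liver left out), and summed to 24.5 to 28.6 FPKM in PF-WT and 21.8 to 27.1 FPKM in ETOH-WT. Their part in the values of Fabp4 and Pparg was not tested.

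Fabp1 (liver FABP), the cytosolic carrier of hepatocytes and the small intestine, was the most abundant member, at 9916, 9207 and 9224 FPKM in PF-WT mice 1 to 3 and at 8191, 7701 and 6945 FPKM in ETOH-WT mice 1 to 3. All ETOH-WT livers were below all PF-WT livers. The means were 9449 ± 404 and 7612 ± 628 FPKM, with a log2 fold change of -0.31 (SE 0.14, 95% interval -0.64 to 0.01, limma adjusted p = 0.229). Fabp1 (ENSMUSG00000054422) lies on chromosome 6 at 71199827 to 71205023 on the plus strand, with 1 transcript. The 7 hepatocyte markers measured summed to 76695 to 89335 FPKM in PF-WT and 70777 to 77761 FPKM in ETOH-WT, and none passed the test. Most of that sum was Alb (58090 ± 3570 and 49738 ± 2960 FPKM, limma adjusted p = 0.541). Alb and Ttr were, like Fabp1, lower in all ETOH-WT livers than in all PF-WT livers. The other markers overlapped, with lower ETOH-WT means for Apoa1 and Fgb and higher ones for Apob, Serpina1a and Ahsg.

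Fabp2 (intestinal FABP), the carrier of enterocytes that liver expresses at lower levels, was at 140, 145 and 162 FPKM in PF-WT mice 1 to 3 and at 101, 121 and 71.1 FPKM in ETOH-WT mice 1 to 3. The groups did not overlap, and the ETOH-WT livers were spread more widely than the PF-WT livers. The means were 149 ± 11.4 and 97.4 ± 24.9 FPKM, a log2 fold change of -0.64 (SE 0.18, 95% interval -1.05 to -0.23, limma adjusted p = 0.0730). It passed the threshold without ETOH-WT mouse 2 (-0.81, limma adjusted p = 0.0330), with array weights (-0.80, limma adjusted p = 0.00966) and, narrowly, after quantile normalization (-0.70, limma adjusted p = 0.0499). The antisense gene 4933405D12Rik overlaps Fabp2 (ENSMUSG00000023057, chromosome 3, 122895072 to 122899506, plus strand, 1 transcript), so reads of the pair cannot be told apart. Of 6 intestinal epithelium markers, Lgals4 and Apoa4 were measured. Apoa4, which liver itself expresses, was at 204 ± 58.8 FPKM in PF-WT and 1112 ± 621 FPKM in ETOH-WT (log2 fold change 2.26, limma adjusted p = 0.0313), opposite to the direction of the Fabp2 values. That call was lost without PF-WT mouse 1 or 2 or ETOH-WT mouse 2 or 3 (limma adjusted p up to 0.115).

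**Figure D3:**
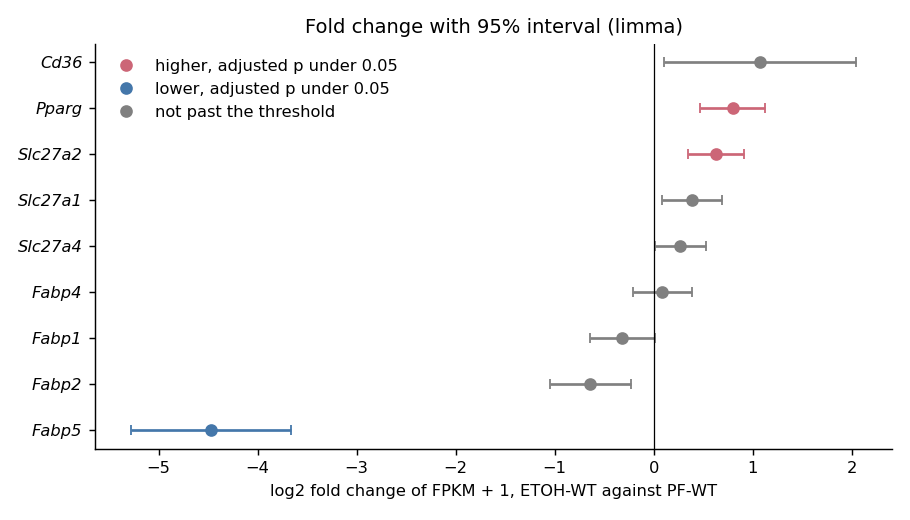
Log2 fold change of FPKM + 1 in ETOH-WT against PF-WT (horizontal axis) for each of the 9 genes, as a point with its 95% interval from limma; red marks genes called higher, blue genes called lower and grey genes that did not pass the threshold of 0.05 on the adjusted p. Fabp5 lies at -4.47, far below the other 8 genes, which lie between -0.64 and 1.08.

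FPKM are scaled by transcript length, so levels can be set in order between genes. In PF-WT the order of means was Fabp1, Slc27a2, Fabp5, Fabp2, Cd36, Fabp4, Slc27a4, Pparg and Slc27a1. Of the 8 pairs of neighbours in it, the livers overlapped for Fabp5 with Fabp2, and the other neighbours did not overlap. In ETOH-WT the order was Fabp1, Slc27a2, Fabp2, Cd36, Fabp4, Pparg, Slc27a4, Fabp5 and Slc27a1. There the livers overlapped for Fabp2 with Cd36, Fabp4 with Pparg, Pparg with Slc27a4, Slc27a4 with Fabp5, and Fabp5 with Slc27a1, so the order of those neighbours is not settled by 3 livers. Fabp5 went from the third to the eighth place. The spread between livers of 1 diet, as SD in percent of the mean, ran from 4.28% for Fabp1 to 66.4% for Cd36 in PF-WT and from 5.79% for Fabp4 to 53.3% for Fabp5 in ETOH-WT.

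**Figure D4:**
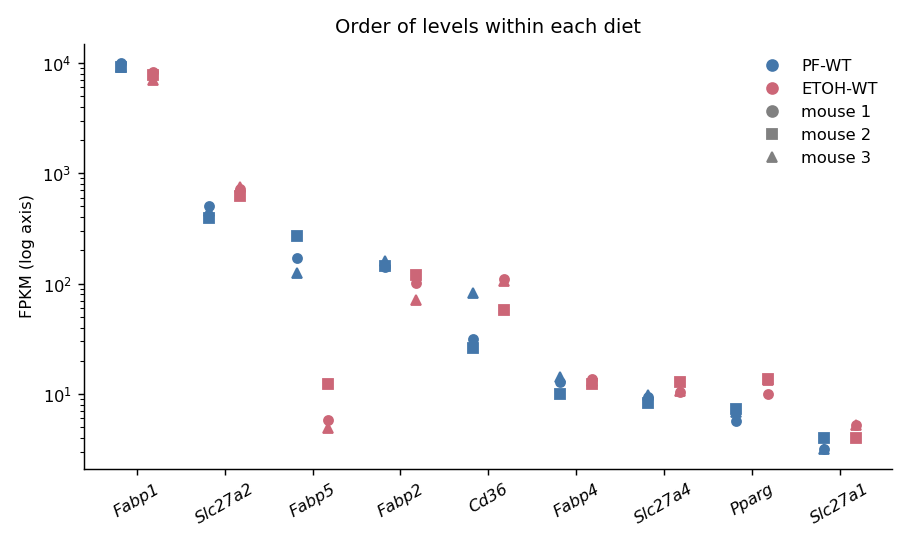
FPKM of the 9 genes in every liver on a log axis, ordered by the PF-WT mean, with PF-WT in blue, ETOH-WT in red and the marker shape giving the mouse number. Fabp1 stood above the other genes in both diets, and Fabp5 went from a level beside Fabp2 in PF-WT to one beside Slc27a4 and Slc27a1 in ETOH-WT.

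The 4 FABP genes summed to 9798 ± 384 FPKM in PF-WT and 7730 ± 646 FPKM in ETOH-WT (exact permutation test, two-sided, p = 0.1, the smallest possible). Fabp1 made up 96.4 ± 0.717% of that sum in PF-WT and 98.5 ± 0.300% in ETOH-WT, and Fabp5 made up 1.92 ± 0.771% and 0.0991 ± 0.0511%. Fabp5 was thus a small part of the FABP total in both diets. Fabp5 was 1.28 ± 0.543 times Fabp2 in PF-WT and 0.0764 ± 0.0236 times Fabp2 in ETOH-WT.

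Among other genes of the pathway, taken from 7 lists written from general knowledge, 73 of 90 were tested. All 7 lists were chosen with earlier results of these data known, so the shares called in them are not independent of the values. Of these, 7 rose (9.59%), 5 fell (6.85%) and 61 did not pass, with a median log2 fold change of 0.12. The 7 include Cidec, whose mean in PF-WT (0.417 FPKM) was under the filter of 0.5 FPKM. It entered the test only through the group where it was high, and the share of 9.59% includes it. Over all genes tested, 3.97% were called higher and 2.67% lower, with a median of 0.02. Of 11 further FABP family genes and close relatives, 2 were tested and neither passed. Fabp7 was at 6.41 ± 1.94 and 5.97 ± 1.07 FPKM (limma adjusted p = 0.888). Of 12 genes of membrane entry and caveolae, such as Got2, Cav1 and Mfsd2a, 11 were tested and none passed, with a median log2 fold change of 0.08. 

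Of 13 genes of plasma lipolysis and remnant uptake, Lmf1, a maturation factor of lipases, rose (log2 fold change 0.49, limma adjusted p = 0.0167). Vldlr, a receptor of triglyceride-rich lipoproteins, had a higher point value and did not pass (1.19, limma adjusted p = 0.0544). Of 9 genes of acyl-CoA and lipid binding, Hsd17b4, a peroxisomal oxidation enzyme, rose (0.45, limma adjusted p = 0.0227). Dbi, the acyl-CoA binding protein, was at 2101 ± 302 FPKM in PF-WT and 1188 ± 340 FPKM in ETOH-WT and fell (-0.85, limma adjusted p = 0.0494). Vldlr passed without PF-WT mouse 3 (limma adjusted p = 0.0132) and with array weights (limma adjusted p = 0.00684). The call of Lmf1 was lost without PF-WT mouse 2 or ETOH-WT mouse 3 (limma adjusted p up to 0.0871), and that of Hsd17b4 without any liver but PF-WT mouse 3 or ETOH-WT mouse 2 (up to 0.114). That of Dbi was lost without any liver but ETOH-WT mouse 2 (limma adjusted p up to 0.158).

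Of 19 genes of PPAR partners, related receptors and cofactors, 3 rose and none fell, where 3.97% of all genes tested were called higher and 2.67% lower. Nr1i3 (the receptor CAR) had a log2 fold change of 0.70 (limma adjusted p = 0.0310), Hnf4a, a regulator of hepatocyte identity, of 0.48 (limma adjusted p = 0.0130), and Nr1i2 (PXR) of 0.42 (limma adjusted p = 0.0459). Ppara, the main PPAR of hepatocytes and a known regulator of Fabp1 and Cd36, was at 45.4 ± 7.46 and 44.7 ± 5.97 FPKM (limma adjusted p = 0.954). Rxra, the partner of both PPARs, had a log2 fold change of 0.43 and did not pass (limma adjusted p = 0.0722). Rxra passed without ETOH-WT mouse 2 (limma adjusted p = 0.0330) and with array weights (limma adjusted p = 0.00731). The calls of Nr1i3 and Hnf4a were lost without PF-WT mouse 2 or ETOH-WT mouse 3, and that of Nr1i3 also without PF-WT mouse 3 or ETOH-WT mouse 1 (limma adjusted p up to 0.122 and 0.0812). The call of Nr1i2 was lost without any 1 of the livers (limma adjusted p of 0.0569 to 0.114). Whether the change of Pparg differed from that of Ppara was not tested.

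Of 25 further genes known as targets of PPARG in fat cells or fatty liver, 20 were tested. Among those, 2 rose, 2 fell and 16 did not pass, with a median log2 fold change of 0.21, against 0.02 over all genes tested. The shares called over all genes tested were 3.97% higher and 2.67% lower. Ucp2, a mitochondrial carrier, rose from 34.5 ± 6.55 to 59.3 ± 4.63 FPKM (log2 fold change 0.78, limma adjusted p = 0.0219), and Cidec, a protein of lipid droplets, from 0.417 ± 0.165 to 1.51 ± 0.520 FPKM (0.81, limma adjusted p = 0.0367). The mean of Cidec in PF-WT was under the filter of 0.5 FPKM, so it entered the test only through the group where it was high, and its place among the genes that rose is no support for the list. Scd1, the desaturase that makes oleate, fell (-4.14, limma adjusted p = 0.00237), as did Acaca, of fatty acid synthesis (-0.70, limma adjusted p = 0.0425). Both genes that fell belong to fat synthesis, and why they fell was not tested. The call of Scd1 was kept without any 1 of the livers. That of Ucp2 was lost without PF-WT mouse 2, ETOH-WT mouse 1 or ETOH-WT mouse 3 (limma adjusted p up to 0.0755), that of Cidec without any liver but ETOH-WT mouse 3 (up to 0.116) and that of Acaca without any liver but PF-WT mouse 1 (up to 0.161).

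The profile of each gene over the 6 livers was compared with those of 10443 genes averaging 1 FPKM or more, by the mean absolute difference of log2(FPKM + 1) after each gene's own mean was subtracted. Closest to Fabp5 was A1bg, a plasma glycoprotein, with a mean difference of 0.142. A1bg was at 46.5, 84.4 and 33.5 FPKM in PF-WT mice 1 to 3 and at 0.751, 3.44 and 0.363 FPKM in ETOH-WT mice 1 to 3. It followed Fabp5 also in having mouse 2 highest and mouse 3 lowest within each diet. Next came Chrna4, a subunit of nicotinic acetylcholine receptors, with a mean difference of 0.323 and a log2 fold change of -4.19 (limma adjusted p = 0.00113).

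Closest to Cd36 was Sult2a2, a sulfotransferase, with a mean difference of 0.208. Sult2a2 was at 184, 158 and 547 FPKM in PF-WT mice 1 to 3 and at 469, 476 and 600 FPKM in ETOH-WT mice 1 to 3, so PF-WT mouse 3 stood among the ETOH-WT livers for this gene as for Cd36 (limma adjusted p = 0.183). Acot2, a mitochondrial acyl-CoA thioesterase, followed with 0.224. Closest to Pparg were Mif, a cytokine (0.0922), and Cbr1, a carbonyl reductase (0.0967). Closest to Slc27a1 were Erbin, a scaffold protein (0.0446), and Mfsd7a, a membrane transporter (0.0481). With 6 livers such likeness is a description only.

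**Figure D5:**
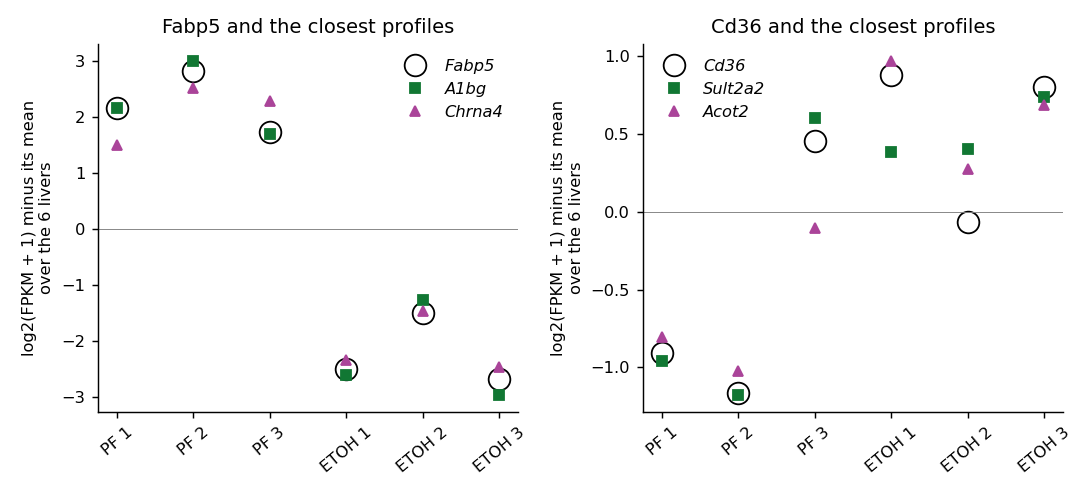
Log2(FPKM + 1) minus its mean over the 6 livers (vertical axis) in each liver (horizontal axis), for Fabp5 with the closest genes A1bg and Chrna4 (left) and for Cd36 with Sult2a2 and Acot2 (right). Open black circles are Fabp5 or Cd36; for Fabp5 and its neighbours the PF-WT livers lie above 0 and the ETOH-WT livers below, and for Cd36 and Sult2a2 PF-WT mouse 3 lies on the side of most ETOH-WT livers.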

How the data were processed

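Liver RNA was sequenced as 51 bp pairs after 15 PCR cycles. The authors deposited 1 table with 1 value per liver and gene. No source used here names the unit of the deposited values, which were taken as FPKM because they are fractional and of that size. For the authors' processing, their methods give STAR 2.5.2b, HTSeq-count 0.11.2 and DESeq2. The processing notes of the submitters list cutadapt, TopHat2 2.0.11, HTSeq 0.11.2 and 1.6.3 and the build mm10. The program behind the FPKM was not given in the sources used here. A count test could not be used on FPKM, so log2(FPKM + 1) was fitted with limma 3.58.1 in R 4.3.3 (lmFit, eBayes with trend), on diet alone (4 residual and 4.00 prior degrees of freedom), over rows that averaged 0.5 FPKM or more. Where a gene name was repeated (25 rows), the row of higher mean was taken. Table coordinates are written 1-based, and all 9 members had the ends of the GENCODE vM21 annotation. Near-identical transcripts were found with blastn 2.17.0, and ratios, sums and profiles were computed in Python 3.11.15. The fitting procedure was tested on simulated data.

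The members and all lists were chosen with earlier results of these data known. Named genes are the members, the other FATPs, up to 2 called genes with the largest changes in each direction of each list, and the 2 closest profiles of Pparg, Cd36, Slc27a1 and Fabp5. Some list genes are not reported here. Nr1i2, which was called higher, uncalled list genes and marker genes were named after their values were seen. Alternatives were pseudocounts of 0.1 and 2, no filter, a mean of at least 2, quantile normalization, median-ratio scaling, eBayes without trend, array weights, a replicate block and leaving out each liver, 15 fits in all.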

Additional observations from a re-analysis of the deposited data

How the results depend on the processing

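Fabp5 kept its call under all 15 alternatives, with log2 fold changes of -5.05 to -4.18. Quantile normalization left 1 member called higher (Pparg) and made 2 called lower (Fabp2 and Fabp5), and array weights also gave 2 lower. Leaving out 1 liver gave 0 to 2 members called higher and 1 or 2 lower. Over all genes, array weights called 1327 higher and 945 lower, and leaving out 1 liver called 83 to 347 higher and 76 to 299 lower. The log2 fold changes of 3 genes that were not called changed sign: Fabp4 without PF-WT mouse 2 (-0.043 to 0.19 with 1 liver left out), Fabp7 without PF-WT mouse 1 or 2 or ETOH-WT mouse 2 (-0.30 to 0.085), and Ppara without PF-WT mouse 1 or ETOH-WT mouse 2 or 3 (-0.12 to 0.11) and with array weights (0.052). A fit with the replicate block called 253 genes higher and 201 lower and changed no call of a member. It ended the calls of Lmf1, Hsd17b4, Dbi, Cidec, Acaca, Nr1i2 and Emcn (limma adjusted p of 0.0528 to 0.106). Quantile normalization or median-ratio scaling ended those of Nr1i3, Nr1i2, Dbi or Acaca (limma adjusted p of 0.0508 to 0.0773). Livers with the same number did not deviate together (correlations of -0.03 to -0.01 over 11346 genes), and no liver correlated best with its own number. Deviations among 3 livers sum to 0, and a value over all genes can miss a pairing in some, so pairing by number was not excluded. For the log2 fold changes of the named genes, 422 values under an alternative kept their direction and side of the threshold, 81 lost the call, 12 gained one and 8 changed sign; the cause was not tested.

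With 3 livers a diet, unknown read depth and an inferred unit, intervals cover only the spread between these mice. The low values of ETOH-WT mouse 1 differ in kind from those of the other livers.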
